A study of Mus musculus with 32 samples.

Results

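The genes described here are 10 genes used as markers of thermogenic, brown or beige fat, chosen by symbol: Ucp1, Ucp2, Cidea, Ppargc1a, Ppargc1b, Prdm16, Cox7a1, Cox8b, Dio2 and Elovl3. The deposited expression table held 9 of them among its 20560 genes, and Ucp1 was not analysed here. In Zbtb9 knockdown cells Ppargc1b was higher than in control cells on days 3, 7 and 11, and Cox7a1 was higher on days 7 and 11. Ucp2 was lower on days 0 and 3, calls that were lost in some alternative fits, and higher on day 7. With both shRNAs pooled, Ppargc1a was higher on day 3 and lower on day 7, calls also lost in some alternative fits. On day 7 Ppargc1a with shRNA #2 alone did not pass as different from control. On days 7 and 11 its level differed between the 2 shRNAs. Cidea, Prdm16, Cox8b, Dio2 and Elovl3 never exceeded 14 reads in a library.

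Brown and beige adipocytes hold many mitochondria and release heat when noradrenaline, through beta-adrenergic receptors and cyclic AMP, starts fat breakdown and activates UCP1, a proton carrier of the inner mitochondrial membrane. The coactivators PGC-1α (Ppargc1a) and PGC-1β (Ppargc1b) raise transcription of mitochondrial genes, PRDM16 directs the brown and beige programme, and the deiodinase made from Dio2 activates thyroid hormone inside the cell. White adipocytes store fat, and the 3T3-L1 line is used mainly as a model of them.

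3T3-L1 is an established line of mouse embryo fibroblasts that become adipocytes when given a hormone cocktail. Confluent preadipocytes carrying shRNA #1 or shRNA #2 against Zbtb9, which encodes a zinc-finger protein, or a scrambled shRNA (shCtrl), received dexamethasone, IBMX (an inhibitor of cyclic AMP breakdown) and insulin on day 0. They had insulin alone from day 3 and plain serum medium from day 7. RNA was sequenced on days 0, 3, 7 and 11, in 2 libraries per Zbtb9 shRNA and 4 shCtrl libraries each day, 32 libraries in all. The labels call the libraries of a group biological replicates without saying whether each had its own transduction, so the p-values measure the spread between these cultures.

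The 32 libraries held 22280359 to 31073718 reads. On day 11 the control libraries were deeper (26486054 to 31073718 reads) than the knockdown libraries (22839492 to 25511836). Zbtb9 was at 61.9%, 50.6%, 42.7% and 54.5% of control on days 0, 3, 7 and 11 (4 libraries against 4, exact two-sided permutation p = 0.029, 0.114, 0.029 and 0.143; 0.029 is the smallest p this size allows). On day 11 Zbtb9 stood at 8.17 and 19.3 normalized reads in the libraries labelled shRNA #1 and at 2.13 and 4.25 with shRNA #2, against 12.07 to 19.96 in control, so that replicate 2 labelled shRNA #1 (17 reads) lay within the control range. Its log2 difference from control on that day was -0.08 for shRNA #1 (limma adjusted p = 0.731) and -0.49 for shRNA #2 (0.0214); the shRNAs did not pass as different (0.115). The day 11 results are therefore also given without that replicate or for shRNA #2 alone where the members were tested. In the annotation 84.4% of its exon bases also belong to another gene of the same strand. All 8 adipocyte markers (Pparg, Cebpa, Fabp4, Adipoq, Plin1, Cidec, Slc2a4 and Cfd) were higher in knockdown cells on days 3, 7 and 11, when 14.6%, 24.9% and 16.8% of all genes were. Their summed normalized reads were 27620 to 30690 in control and 83520 to 119500 in knockdown libraries on day 7. Of preadipocyte and fibroblast markers, 1 of 6 tested (Dlk1) was higher and 2 lower on day 3, and 5 were lower on days 7 and 11 (12.1%, 22.6% and 16.2% of all genes were lower on these days), with summed normalized reads on day 7 of 182600 to 207100 in control and 151300 to 175900 in knockdown libraries. Of 2 macrophage markers tested, Cd68 was higher on days 7 and 11 (log2 difference 0.87 and 0.86, limma adjusted p = 0.000189 and 0.0284); the list summed to 46.65 to 80.6 normalized reads in control and 89.3 to 149.7 in knockdown libraries on day 7, and Itgam and Ptprc had 3 reads at most in each of these. On day 11 the sums overlapped, at 166.3 to 278.4 in control and 264.7 to 628 in knockdown libraries. The highest was replicate 2 labelled shRNA #1, which also held all 8 Itgam reads of the knockdown libraries of that day. The part of these markers in the results below was not tested, and in bulk RNA more differentiated cells and more RNA per cell cannot be told apart. Skeletal muscle also uses Ppargc1a and Cox7a1; 5 of its 8 markers were in the table, at 45.97 summed normalized reads at most in a library, and the 1 tested, Mylpf, passed on no day between knockdown and control. In control cells Mylpf was higher on days 3 and 11 than on day 0 (log2 change 0.42 and 0.35, limma adjusted p = 0.00459 and 0.0229).

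The RefSeq promoter sequences (GRCm38.p6) held 6 of the 9 members in the table. Those of Ppargc1a, Ucp2 and Cox7a1 are shown up to the first annotated exon, because these 3 had enough reads to be tested and changed between arms or days. On GRCm38 Ucp2 spans chr7:100493337-100502020 (plus strand), Cox7a1 chr7:30184144-30186078 (plus strand) and Ppargc1a chr5:51454250-51567726 (minus strand). The cocktail raises cyclic AMP, so TGACG, the core of the cyclic AMP response element, was searched on both strands and is in capitals for Ppargc1a and Ucp2. Capitals in Cox7a1 mark CCAAT, the box bound by NF-Y, also read on both strands.

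Ppargc1a, chr5:51567727-51567975, minus strand: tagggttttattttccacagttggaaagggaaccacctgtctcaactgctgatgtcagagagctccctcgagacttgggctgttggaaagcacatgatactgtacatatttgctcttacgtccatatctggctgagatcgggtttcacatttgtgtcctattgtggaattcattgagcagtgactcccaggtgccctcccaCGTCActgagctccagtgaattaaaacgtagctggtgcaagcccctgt
Ucp2, chr7:100493108-100493336, plus strand: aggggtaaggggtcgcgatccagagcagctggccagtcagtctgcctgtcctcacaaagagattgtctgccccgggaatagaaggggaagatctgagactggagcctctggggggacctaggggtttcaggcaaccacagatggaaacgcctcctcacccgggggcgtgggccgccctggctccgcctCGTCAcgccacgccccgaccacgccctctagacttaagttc
Cox7a1, chr7:30183921-30184143, plus strand: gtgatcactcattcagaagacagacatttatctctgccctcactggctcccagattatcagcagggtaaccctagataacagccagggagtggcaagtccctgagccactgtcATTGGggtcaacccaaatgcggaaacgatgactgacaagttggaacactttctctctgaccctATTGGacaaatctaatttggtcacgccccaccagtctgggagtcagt

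Within 250 bases upstream of the start, Ppargc1a and Ucp2 each held 1 TGACG, a motif found in 17.8% of the 32851 RefSeq promoters. The upstream sequence of Cox7a1 held CCAAT in 2 places (33.8% of promoters hold it at least once) and no TGACG. Dio2 held the full palindrome TGACGTCA once (1.5% of promoters hold it), which reads as TGACG on each strand and accounts for both of its 2 TGACG matches. These matches describe the letters only.

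In control libraries, per kilobase of exon on the scale of normalized reads, Ucp2 averaged 206.1 ± 11.92 on day 0 (SD, n = 4, as for all values of this kind), Ppargc1a 88.04 ± 7.055 and Ppargc1b 9.125 ± 1.521. Cox7a1 began at 0.4385 ± 0.877 and reached 30.33 ± 8.953 on day 11, level with Ppargc1b at 25.39 ± 2.323.

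Across the control time course, Ucp2 and Ppargc1b were higher and Ppargc1a lower on days 3, 7 and 11 than on day 0. Cox7a1 is left out of this count, because its day 0 and day 3 libraries were all under the filter on low values and it was tested only through the later days, when it was high. Most genes changed: 76.6% of all genes tested passed on day 3 (38.3% higher, 38.2% lower), 69.1% on day 7 (33.3% and 35.8%) and 64.6% on day 11 (33.0% and 31.6%; limma on the deposited log2 values, Benjamini-Hochberg adjusted p under 0.05).

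Ucp2 encodes a mitochondrial carrier related to UCP1 that is found in many cell types. In control libraries it stood at 1417, 1512, 1500 and 1333 normalized reads on day 0 and at 9919, 8930, 9311 and 8572 on day 3. It then fell to 3503, 3299, 3660 and 3659 on day 7 and 2651, 2707, 2578 and 2691 on day 11. The order day 3, day 7, day 11, day 0 held with no overlap between days. Fold changes from limma are on the deposited log2 scale, which draws low counts together and so can fall short of the ratio of reads. The day 3 rise was 5.97-fold on that scale (log2 change 2.58 ± 0.04 SE, limma adjusted p = 9.94e-33).

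Before and early in differentiation Ucp2 was slightly lower in knockdown cells. On day 0 the knockdown libraries held 1130 and 1230 (shRNA #1) and 1036 and 1126 (shRNA #2) normalized reads, all under the lowest control library. The log2 difference was -0.34 ± 0.06 (limma adjusted p = 0.016). This call was lost when control replicate 1, 2 or 3 was left out (adjusted p = 0.0608, 0.0751 and 0.0754) and with the replicate block (0.437). Ucp2 was the 1 member called of 3 tested on day 0, against 3.25% of all genes. On day 3 the knockdown libraries held 7421, 8519, 7423 and 7968 normalized reads, each below every control library (log2 difference -0.22 ± 0.05, adjusted p = 0.00781; 0.0831 with the replicate block).

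On day 7 the order of the arms was the opposite. Knockdown libraries held 6358 and 6757 (shRNA #1) and 5546 and 5947 (shRNA #2) normalized reads of Ucp2, against 3660 at most in control. The difference was 1.71-fold (log2 0.77 ± 0.06, limma adjusted p = 7.28e-08). It was larger than the day 0 difference by 1.11 on the log2 scale (adjusted p = 8.76e-11 for the change in the knockdown effect, a test 29.9% of genes passed). The shRNAs both raised it, and shRNA #2 was lower than shRNA #1 by a log2 difference of -0.18 (adjusted p = 0.0397), a call that was lost with no filter on low values (0.101). By day 11 the knockdown libraries, at 2527, 1964, 2521 and 2382, again lay below the control libraries, with a log2 difference of -0.18 ± 0.07 that did not pass (adjusted p = 0.084; -0.10 and 0.15 without replicate 2 labelled shRNA #1). It passed with the shRNAs as separate groups (0.0241), in 1 fit of all 32 libraries (0.0337), with equal totals (0.0496) and without shRNA #2 replicate 1 (0.0464). By shRNA, the log2 difference was -0.24 for shRNA #1 (limma adjusted p = 0.0137) and -0.11 for shRNA #2 (0.257).

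**Figure D1:**
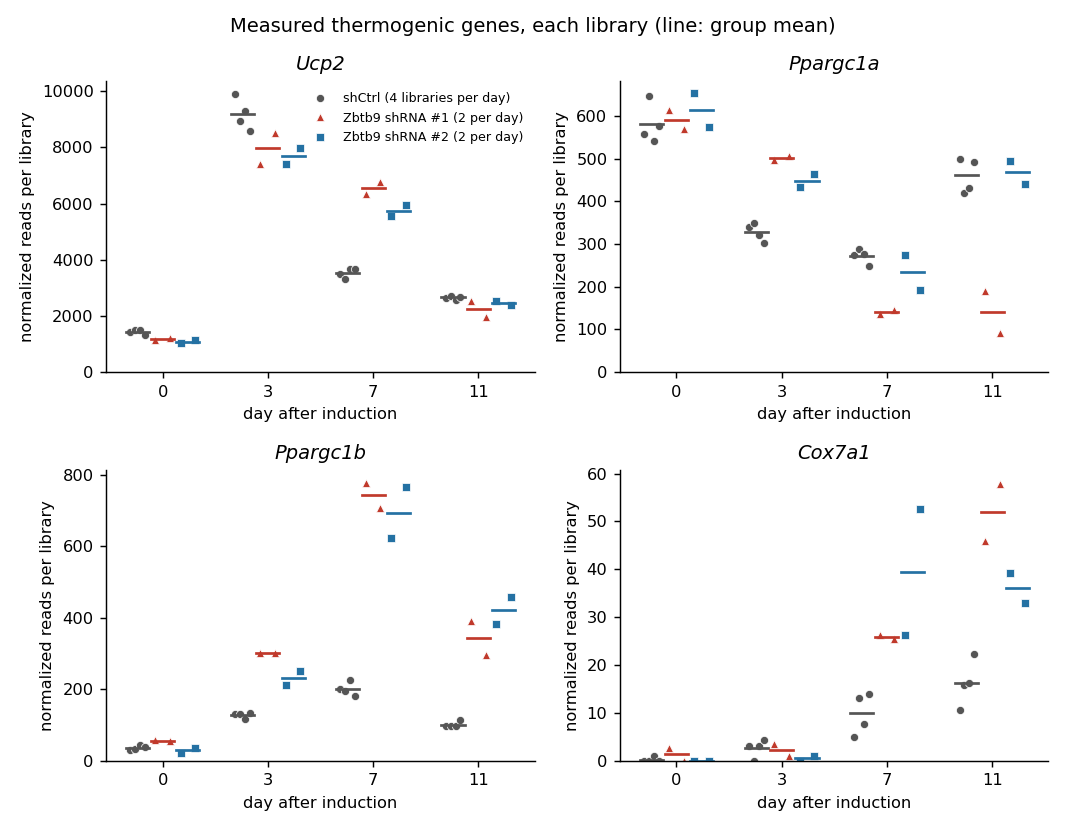
Normalized reads (vertical axis, from 0) of the 4 tested members on days 0, 3, 7 and 11 in each shCtrl, shRNA #1 and shRNA #2 library; short lines are group means. Ppargc1b and Cox7a1 separate upward in knockdown libraries on days 7 and 11, and Ppargc1a is low on day 11 in the shRNA #1 libraries, at 189.9 and 90.84.

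Ppargc1b, on chromosome 18, encodes PGC-1β, the coactivator of nuclear receptors that sustains mitochondrial and oxidative genes. Control libraries held 30.31, 32.38, 43.16 and 39.79 normalized reads on day 0 and 131.5, 131.2, 118.3 and 132.9 on day 3. They held 201.7, 195.7, 226.2 and 182.4 on day 7, the highest day, and 95.99, 96.24, 97.88 and 115.2 on day 11. Day 7 was 3.86-fold above day 0 on the deposited log2 scale (log2 change 1.95 ± 0.10, limma adjusted p = 3.39e-18) and 5.59-fold from the rebuilt reads with voom, and no 2 days overlapped.

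In knockdown cells Ppargc1b rose further. On day 3 the libraries held 301.0 and 302.6 (shRNA #1) and 212.8 and 250.3 (shRNA #2), all above the control libraries. The log2 difference was 0.90 ± 0.11 (limma adjusted p = 4.76e-05). On day 7 they reached 776.3, 707.6, 622.0 and 766.7, far above the highest control library. The difference was 3.13-fold (log2 1.65 ± 0.09, adjusted p = 1.75e-09). On day 11 the libraries held 392.1, 295.2, 381.7 and 459.1, and the difference was 3.15-fold (log2 1.65 ± 0.12, adjusted p = 2.43e-06). It was 1.79 on the log2 scale for shRNA #2 alone (adjusted p = 1.57e-08) and 1.76 without replicate 2 labelled shRNA #1 (2.54e-07).

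Day 0 gave no common direction for Ppargc1b. The shRNA #1 libraries held 57.31 and 54.88 normalized reads, above all 4 controls, while shRNA #2 libraries held 22.84 and 36.16. The log2 difference from control was 0.44 for shRNA #1 (limma adjusted p = 0.0183; 0.0522 with no filter) and -0.20 for shRNA #2 (0.391), tests that 34.5% and 17.4% of genes passed. The shRNAs differed by -0.64 (shRNA #2 minus shRNA #1, adjusted p = 0.00349, passed by 34.7% of genes). On days 3, 7 and 11 they did not pass as different, with 95% intervals of -0.61 to -0.07, -0.34 to 0.15 and -0.04 to 0.58. The knockdown difference on days 3, 7 and 11 exceeded that on day 0 by 0.78, 1.52 and 1.53 log2 units (adjusted p = 0.0116, 2.63e-07 and 4.06e-07). Fitted by voom from the rebuilt reads, the day 3 value was 0.88 and did not pass (adjusted p = 0.127). Tests of this kind passed for 6.57% of genes on day 3, 29.9% on day 7 and 23.2% on day 11.

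Ppargc1a encodes PGC-1α, the cold- and cyclic AMP-inducible relative of PGC-1β. It ran the other way in control cells: 558.2, 646.6, 540.5 and 576.1 normalized reads on day 0, then 340.8, 350.1, 321.3 and 303.0 on day 3. The lowest day was day 7, with 274.5, 288.0, 275.8 and 248.3, and on day 11 the libraries held 498.6, 420.5, 431.4 and 493.2. Days did not overlap, in the order day 0, day 11, day 3, day 7. Against day 0 the log2 change was -0.75 on day 3 and -0.31 on day 11 (± 0.07 each; limma adjusted p = 3.21e-11 and 0.000458), and day 7 was at 0.501 times day 0 on that scale (adjusted p = 3.89e-14; 0.475 times with voom). The day 11 call was lost when all 32 libraries shared 1 estimate of spread (0.343).

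Knockdown and control did not separate for Ppargc1a on day 0, with a log2 difference of 0.05 and a 95% interval of -0.10 to 0.21. On day 3 the knockdown libraries held 497.4 and 506.8 (shRNA #1) and 432.7 and 464.4 (shRNA #2), above all 4 controls. The difference was 1.4-fold (log2 0.48 ± 0.08, limma adjusted p = 0.000361; 0.203 with 1 spread for all 32 libraries). With Ppargc1b and Ucp2, 3 of 3 tested members passed on day 3, against 26.7% of all genes.

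The shRNAs then parted. On day 7 Ppargc1a stood at 136.0 and 145.0 normalized reads in the shRNA #1 libraries, below all other libraries of that day. Of the shRNA #2 libraries, at 274.8 and 191.9, the first lay within the control range of 248.3 to 288.0 and the other below it. The log2 difference from control was -0.82 for shRNA #1 (limma adjusted p = 1.59e-06) and -0.21 for shRNA #2 (0.154), tests that 51.6% and 45.7% of genes passed. The shRNAs differed by 0.61 ± 0.14 (adjusted p = 0.00273, passed by 16.2% of genes). Both shRNAs pooled gave -0.52 ± 0.16 (adjusted p = 0.0162; 0.114 with 1 spread for all 32 libraries and 0.107 with the replicate block).

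On day 11 the libraries labelled shRNA #1 held 189.9 and 90.84 normalized reads of Ppargc1a and shRNA #2 libraries 495.4 and 441.0. The latter lay within the control range of 420.5 to 498.6. Against control the log2 difference was -1.58 for shRNA #1 (limma adjusted p = 9.08e-05) and 0.02 for shRNA #2 (0.945), tests that 43.2% and 36.6% of genes passed. The log2 difference of Zbtb9 on this day was -0.08 for shRNA #1 (limma adjusted p = 0.731) and -0.49 for shRNA #2 (0.0214). The shRNAs did not pass as different in Zbtb9 (0.115). On day 7 the log2 difference of Zbtb9 was -0.32 for shRNA #1 (0.104) and -0.37 for shRNA #2 (0.0685), and neither passed. The part of the Zbtb9 level was not tested. The difference in Ppargc1a between shRNAs on day 11 was 3.04-fold (log2 1.60 ± 0.23, adjusted p = 0.00089), a test 21.7% of genes passed. The pooled difference of -0.78 ± 0.47 did not pass (adjusted p = 0.249; -0.37 and 0.402 without replicate 2 labelled shRNA #1); it passed where the shRNAs were fitted as separate groups (0.00261).

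**Figure D2:**
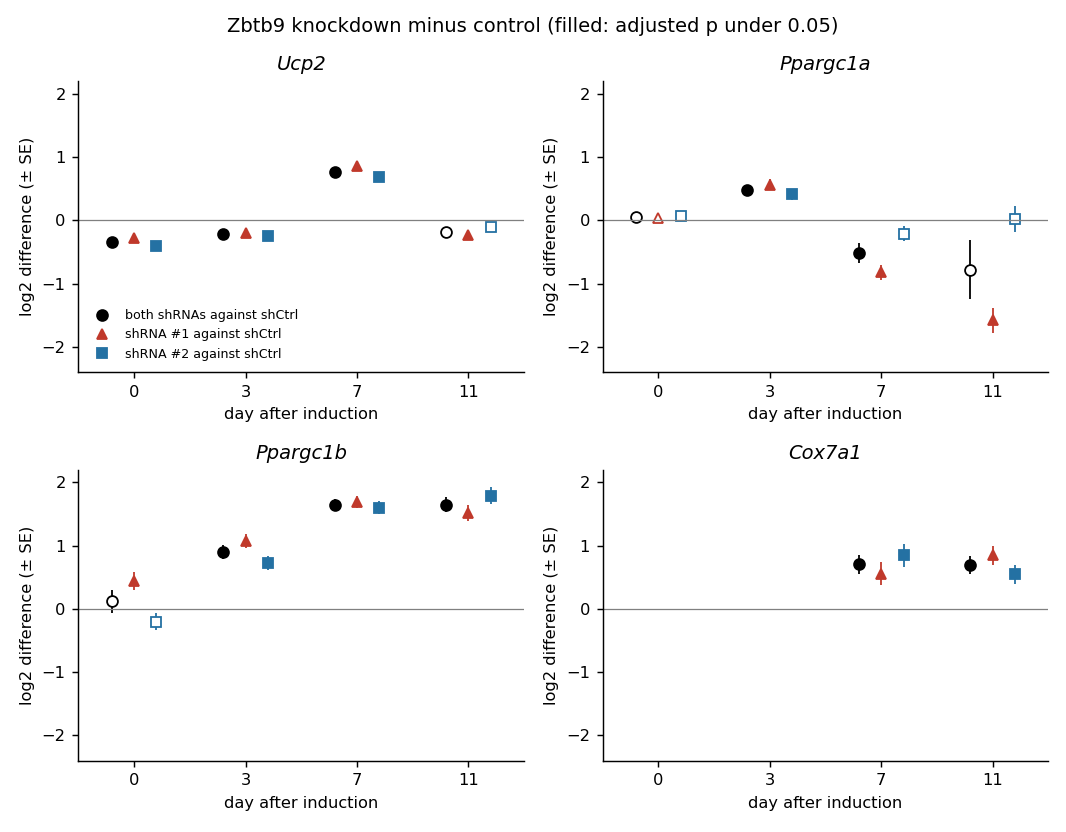
Log2 difference from shCtrl (vertical axis, ± SE) on each day for both shRNAs together and for each shRNA; filled symbols have an adjusted p under 0.05, and Cox7a1 was tested on days 7 and 11 only. The shRNAs lie close together for Ucp2 and Ppargc1b on days 7 and 11 and apart for Ppargc1a, at -1.58 and 0.02 on day 11.

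The ratio of the PGC-1 genes was examined after the values of both had been seen. Per kilobase, Ppargc1a exceeded Ppargc1b by 9.89 ± 2.08 times in control libraries on day 0 and by 1.55 ± 0.119 times on day 3. The control ratio was 0.819 ± 0.0627 on day 7 and 2.76 ± 0.257 on day 11. Knockdown libraries had ratios of 9.92 ± 5.16, 1.09 ± 0.107, 0.162 ± 0.0726 and 0.462 ± 0.273 on the same days. The arms overlapped on day 0 (exact two-sided permutation p = 0.829) and did not overlap on days 3, 7 and 11 (p = 0.029 each, the smallest this size allows). Ppargc1b alone already held the arms apart on days 3, 7 and 11, and this was known when the ratio was formed. The p-values of the ratio therefore describe it and give no added support. By shRNA, the mean ratio was 0.115 for shRNA #1 and 0.209 for shRNA #2 on day 7 and 0.24 and 0.684 on day 11, when Ppargc1a with shRNA #2 was at the control level and Ppargc1b alone was higher. On day 11 every control library held more Ppargc1a than Ppargc1b per kilobase (2.59 to 3.14 times) and every knockdown library less (0.186 to 0.786 times).

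**Figure D3:**
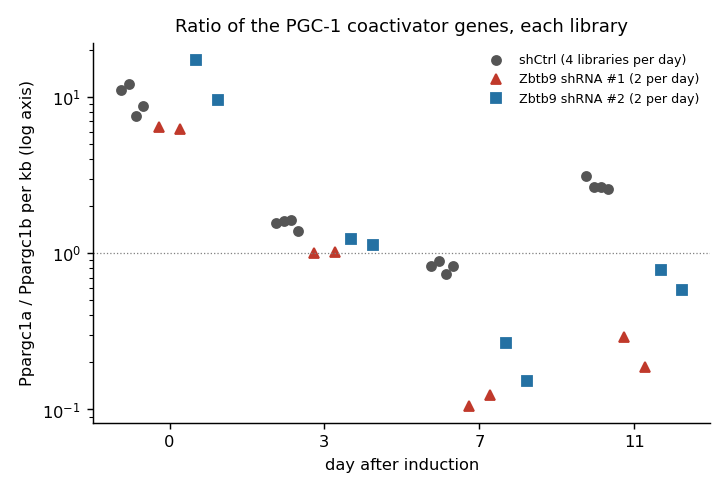
Ratio of Ppargc1a to Ppargc1b in normalized reads per kilobase of exon (log axis) in each library by day; the dotted line marks equal levels. On day 11 control libraries lie above the line, from 2.59, and knockdown libraries below it, up to 0.786.

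Cox7a1 encodes the heart and muscle form of a cytochrome c oxidase subunit and is also high in brown fat. It had at most 3 reads per library on day 0 and 4 on day 3 in either arm. Control libraries held 5, 13, 8 and 12 reads on day 7 and 13, 17, 17 and 24 on day 11. As normalized reads, days 7 (4.92 to 13.9) and 11 (10.6 to 22.3) overlapped. Knockdown libraries held 26, 22, 25 and 54 reads on day 7 and 45, 51, 37 and 31 on day 11, each above every control library.

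The log2 difference for Cox7a1 was 0.71 ± 0.15 on day 7 (limma adjusted p = 0.00149) and 0.70 ± 0.14 on day 11 (adjusted p = 0.00231; 0.55 and 0.00995 for shRNA #2 alone, 0.62 and 0.00501 without replicate 2 labelled shRNA #1). The deposited log2 scale draws low counts together: from the rebuilt reads with voom the differences were 3.31-fold and 2.74-fold (adjusted p = 0.00183 and 0.00262). The shRNAs did not pass as different, with 95% intervals of the log2 difference of -0.14 to 0.72 on day 7 and -0.67 to 0.08 on day 11. On day 7, 4 of 4 tested members passed, against 47.6% of all genes, and on day 11, 2 of 4, against 33.0%. Ppargc1a dropped out of the day 7 count with the replicate block (limma adjusted p = 0.107) and in 1 fit of all 32 libraries (0.114). Cox7a1 entered these counts only on the days when it passed the filter on low values, which all 4 knockdown but 2 of the 4 control libraries met on day 7.

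The other 5 members were at or near the floor, set at 3 reads or fewer in every library of an arm on a day. Of 8 such groups (2 arms by 4 days), Cox8b was at the floor in 7, Prdm16 in 6, Elovl3 in 5, and Cidea and Dio2 in 4 each. Cox7a1 was at the floor in 3. Ucp2, Ppargc1a and Ppargc1b were above it in all.

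Elovl3, an enzyme that lengthens very long fatty acids and is induced by cold in brown fat, had the clearest counts among them. On day 7 the knockdown libraries held 14, 7, 5 and 7 reads and the control libraries 2, 1, 3 and 1. The ratio of normalized totals was 4.88 (95% exact counting interval 2.09 to 12.9; 33 reads against 7) and the arms did not overlap (exact two-sided permutation p = 0.029). On day 11 the knockdown libraries held 8, 1, 9 and 3 reads and the control libraries 0, 1, 0 and 0 (exact permutation p = 0.029), so that 1 knockdown library, replicate 2 labelled shRNA #1, had no more reads than 1 control library before normalization. Without that replicate the exact permutation p was 0.029. On day 3 they held 1, 3, 7 and 6 reads against 0, 0, 2 and 1, and overlapped (exact permutation p = 0.057).

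Cox8b, the heart and brown fat form of another cytochrome c oxidase subunit, had no read on days 0 and 3. On day 11 the knockdown libraries held 2 and 3 reads (shRNA #1) and 8 and 6 (shRNA #2), and the control libraries 2, 1, 0 and 0. The lowest knockdown and the highest control library thus both held 2 reads, and the arms were apart only after division by depth (2.04 against 1.63 normalized reads). The ratio of normalized totals was 7.94 (95% interval 2.21 to 39.6; exact permutation p = 0.029). Among genes under the filter, 4.35% had arms that did not overlap on day 7 and 4.30% on day 11. For Elovl3 on days 7 and 11 and Cox8b on day 11, the exact permutation p was 0.029 with any 1 knockdown library left out, the smallest that 7 libraries allow, and 0.057 to 0.086 with any 1 control library left out. The Cox8b ratio was 16.3 without control replicate 1 and 8.81 without replicate 2 labelled shRNA #1. The intervals cover counting error only.

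Cidea encodes a lipid droplet protein abundant in brown fat. It had 1, 2, 0 and 0 reads in control and 5, 3, 1 and 5 in knockdown libraries on day 7, which overlapped (exact permutation p = 0.057; ratio of normalized totals 4.8, 95% counting interval 1.33 to 25.8). The counts were 7, 1, 6 and 1 against 0, 1, 5 and 2 on day 11. Dio2 was read most on day 3, with 4, 1, 12 and 11 reads in control and 1, 5, 8 and 5 in knockdown libraries, and the arms overlapped (exact permutation p = 0.514). Prdm16 had 20 reads in all 32 libraries, 5 at most in one. None of these 3 genes passed the exact test on any day, and with so few reads only a large difference could.

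**Figure D4:**
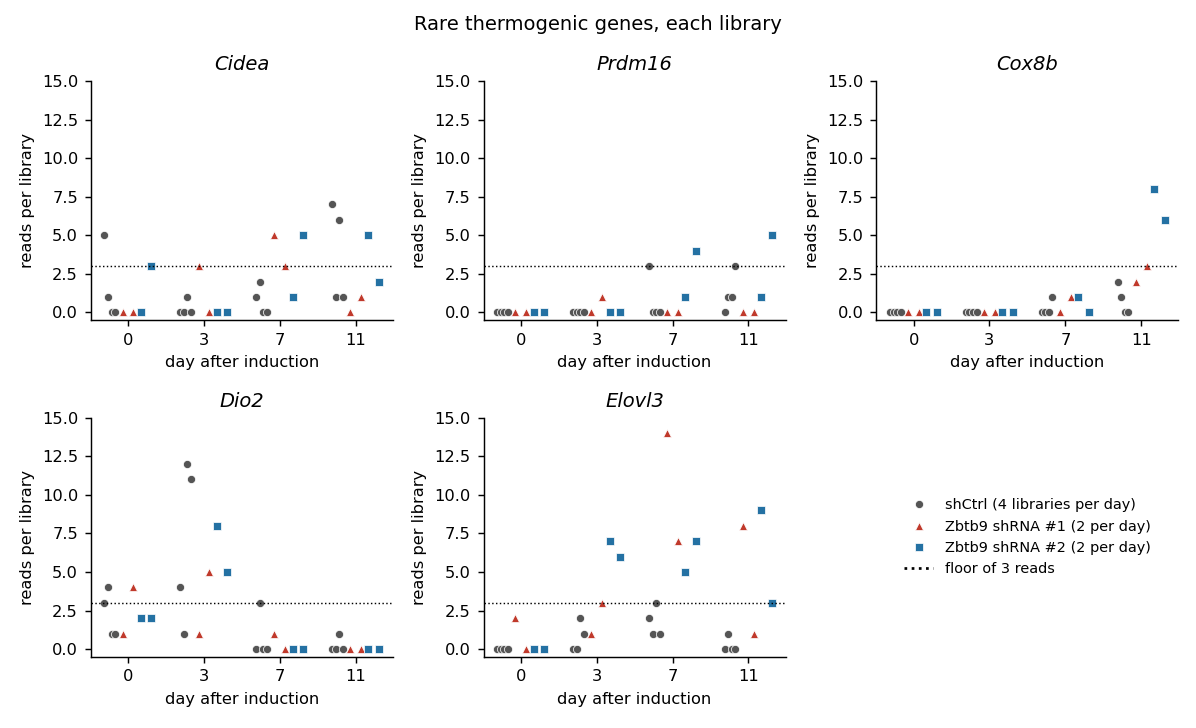
Reads (vertical axis, not normalized) of the 5 rare members in each library on days 0, 3, 7 and 11; the dotted line marks the floor of 3 reads. Elovl3 on day 7 is the panel with the largest count, 14 reads, and Cox8b is over the line only in shRNA #2 libraries on day 11, at 8 and 6.

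Of the members' paralogues, 6 of 14 tested were higher in knockdown cells on day 7 and 3 lower (24.9% and 22.6% of all genes), and 4 and 2 on day 11 (16.8% and 16.2%). Cox7a2, the widely expressed relative of Cox7a1, differed by a log2 change of 0.77 on day 7 and 0.24 on day 11, and Cox8a, the widely expressed relative of Cox8b, by 0.62 and 0.24 (limma adjusted p = 7.58e-08, 0.00757, 1.69e-07 and 0.00823). Cox7a2l differed by 0.24 on day 7 (0.000637) and by 0.05 on day 11 (0.555). Cidec, the white fat relative of Cidea and a droplet fusion protein, differed by 2.51 on day 7 and 2.69 on day 11 (5.02e-06 and 1.55e-07), and Cideb by -0.01 and 0.13 (0.951 and 0.546).

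Among relatives of Ucp2, Ucp3 was higher by 0.99 on both days (limma adjusted p = 0.000463 and 0.00178). Slc25a27 was lower on day 7 (-0.58, adjusted p = 0.00119) and Slc25a14 passed on neither day (-0.21 and -0.04). Pprc1, the third PGC-1 family gene, was lower on both days (-0.41 and -0.23; adjusted p = 0.000104 and 0.0403), as was the fatty acid elongase Elovl6 (-0.66 and -0.47; 4.12e-05 and 0.00672). Elovl4 was higher on day 7 (0.38, 0.0229). Elovl1 and Elovl5 passed on neither day (-0.02 and 0.15 on day 7), nor did Mecom, the relative of Prdm16 (-0.08).

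Among 20 transcriptional regulators of thermogenic fat, 3 of 15 tested were higher in knockdown cells on day 3 and none lower (14.6% and 12.1% of all genes), 9 of 16 higher and 2 lower on day 7 (24.9% and 22.6%), and 9 higher and 1 lower on day 11 (16.8% and 16.2%). Their median log2 difference was 0.11, 0.28 and 0.20, beside 0.00, 0.01 and -0.01 for all genes. Irf4, a cold-induced partner of PGC-1α, was higher by 1.06, 1.11 and 0.91 on days 3, 7 and 11 (limma adjusted p = 0.00175, 5.78e-06 and 0.000206). Nrip1, a corepressor that restrains oxidative genes in fat, was higher by 0.60 and 0.80 on days 7 and 11 (1.85e-07 and 3.66e-05), and the forkhead factor Foxc2 by 0.60 and 0.71 (0.00341 and 0.000466). Sirt1, a deacetylase that acts on PGC-1α, was lower (log2 difference -0.38 and -0.33; 0.00335 and 0.0104), as was the corepressor gene Ctbp2 on day 7 (-0.24, 0.00251).

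Of 20 receptors, signal transducers and secreted factors of thermogenic signalling, 6 of 12 tested were higher and 2 lower on day 7 (24.9% and 22.6% of all genes), and 5 of 13 higher and 1 lower on day 11 (16.8% and 16.2%). Adrb3, the main beta-adrenergic receptor of mouse adipocytes, was higher by 1.42 and 2.66 log2 units (limma adjusted p = 0.000674 and 6.81e-06). Klb, the co-receptor for FGF21, was higher by 1.88 and 2.16 (2.4e-07 and 2.29e-05). The thyroid hormone receptor gene Thra was lower on day 7 (-0.42, 1.27e-05), as was Gnas, which encodes the stimulatory G protein subunit (-0.21, 0.00432), and the ligand gene Bmp4 on day 11 (-0.51, 0.00973).

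Of 25 other genes listed as brown and beige markers, 7 of 14 tested were higher and 3 lower on day 7. On day 11, 6 of 13 were higher and 3 lower. These counts stand beside the same shares of all genes (24.9% and 22.6%, then 16.8% and 16.2%), and the lower counts were near those shares. Cited1, a beige marker, was higher on day 7 (1.85, limma adjusted p = 0.0145), with 15 to 41 reads in control, 59 to 88 with shRNA #1 and 337 to 339 with shRNA #2; on day 11 it did not pass (0.50, 0.0681). Clstn3 was higher by 2.16 and 1.48 and the potassium channel gene Kcnk3 by 1.82 and 1.22 (limma adjusted p = 3.67e-09, 5.65e-05, 9e-08 and 2.04e-05). Tmem26, also a beige marker, was lower on both days (-0.57 and -0.52, limma adjusted p = 0.00221 and 0.0285). Eva1a was lower too (-0.86 and -1.08, limma adjusted p = 2.24e-05 and 0.00061). It was listed by its symbol, and its standing as a brown or beige marker was not checked. Pdk4, a kinase that restrains pyruvate oxidation, was lower on day 7 (-0.32, limma adjusted p = 0.000259) and the homeobox gene Hoxc9 on day 11 (-0.63, 0.0365). White fat markers were also higher: on day 7, 5 of 6 tested were higher and none lower, led by the lipase Lpl (1.59, 0.000145) and resistin, Retn (1.55, 1.58e-09), followed by Serpina3k (0.92, 2.9e-05). On day 11, 3 of the 6 were higher and Nnmt was lower (-0.50, 0.00513).

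Of genes of heat cycles that do not use UCP1, 1 of 5 tested was higher and 2 lower on day 7, and 1 higher and 1 lower on day 11. The shares of all genes were 24.9% and 22.6%, then 16.8% and 16.2%. With only 5 genes tested, no conclusion is drawn from these counts. The gene that was higher on both days was Alpl, the phosphatase of creatine cycling, by 3.30 and 2.03 (limma adjusted p = 2.66e-09 and 3.18e-06). Gamt, which makes creatine, and its transporter gene Slc6a8 were lower on day 7 (-0.42 and -0.19; limma adjusted p = 0.00948 and 0.0192), and the ADP/ATP carrier gene Slc25a4 on day 11 (-0.24, 0.029).

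**Figure D5:**
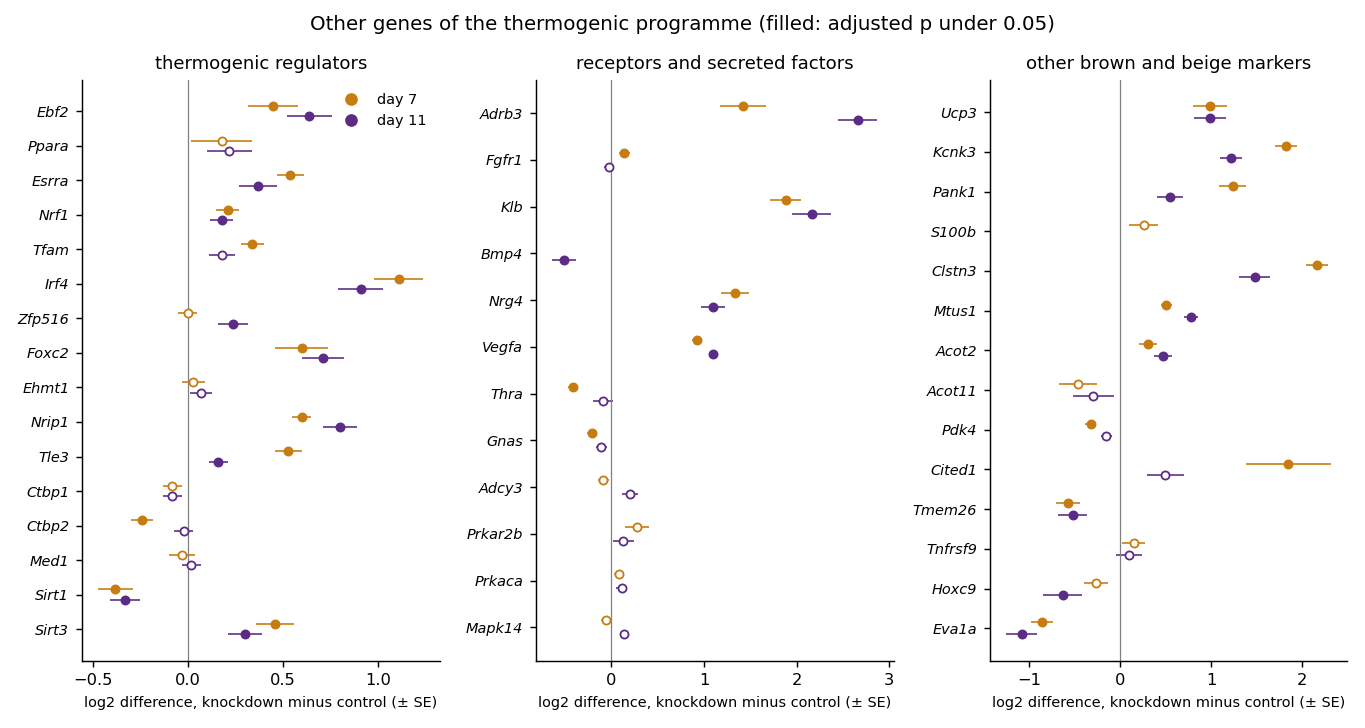
Log2 difference, knockdown minus control (horizontal axis, ± SE), on days 7 and 11 for tested genes of 3 lists: regulators, receptors and secreted factors, and other brown and beige markers; filled points have an adjusted p under 0.05. Adrb3 on day 11 is farthest right, at 2.66. Farthest left is Eva1a on day 11, at -1.08, a listed gene whose standing as a marker was not checked.

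Genes with the course most like each member were taken over the 8 group means (2 arms by 4 days) among 12065 genes, as a description of points that share libraries and normalization. For Ppargc1b these were Dusp22, Dgat1 and Pdhb (Pearson r = 0.995, 0.990 and 0.990), and for Cox7a1 they were Ucp3, Hcar1 and Abi3 (0.996, 0.996 and 0.994). Rplp2, Lhpp and Aamp were most like Ucp2 (0.990, 0.990 and 0.989). Ppargc1a had the fewest close matches: 16 genes exceeded 0.95, led by Acvr2a, Zfhx2 and Brox (0.972 each), against 145 for Ucp2, 135 for Ppargc1b and 111 for Cox7a1.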

How the data were processed

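RNA-seq libraries of 3T3-L1 cells were prepared with the TruSeq RNA kit, per the labels' protocols. The submitters' processing notes name TopHat2 2.1.0, Bowtie2 2.2.6, SAMtools 1.3.1 and HTSeq 0.6.1; genome build, annotation, strand setting and transformation are not given in the sources used here. The authors deposited 1 table of log2 values for 20560 genes (-1.56 to 17.99), whose form is that of a regularised log2 of counts, which shrinks differences of low genes. Whole reads were rebuilt by inverting it: 98.9% of values came within 0.1 of a whole number (20% by chance), and these give the reads, normalized reads and depths. Positions, exon lengths and overlaps are from GENCODE M21 on GRCm38.

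Deposited log2 values were tested with limma 3.58.1 (trend, robust; R 4.3.3), with Benjamini-Hochberg adjustment over all genes reaching 10 on the unlogged scale in 4 or more libraries (2 or more in fits of separate shRNAs). The main comparisons were both shRNAs against shCtrl per day, shCtrl days against day 0, the change of the knockdown effect from day 0, and each shRNA alone. Members under the filter were tested on normalized reads by an exact two-sided permutation test, 4 against 4. Adjusted p under 0.05 counted as called. Where the libraries of a tested member lay apart between arms, this describes the values. The share of all tested genes with arms apart is not given here. Alternatives were no filter or a filter of 50, equal totals, limma without trend and robust fitting, rebuilt reads plus 1 or 0.5 on a log2 scale, voom with TMM scaling, a replicate block, other groupings of the fit and each library left out.

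The members and gene lists were chosen with earlier results of these data known. Named from a list were at most 3 called genes per direction by size of change on days 7 and 11, and the members' paralogues whatever their values; 1 listed gene is counted but not reported here by name or value. The fits were also run on simulated data with known changes, and the outcome is not given here.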

Additional observations from a re-analysis of the deposited data

Results flagged for a closer look

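Of 72 groups of 4 libraries (9 members, 2 arms, 4 days), the 29 with 3 reads or fewer in every library were not examined. Of the other 43, 3 held 1 library apart from the rest (gap over range above Dixon's 95% critical value; chance sets apart about 1 group in 20). Ppargc1b in control cells was at 118 normalized reads in replicate 3 on day 3, with the others at 131 to 133, and at 115 in replicate 4 on day 11, with the others at 96.0 to 97.9. Cox7a1 was at 52.6 normalized reads in shRNA #2 replicate 2 on day 7, with the other knockdown libraries at 25.5 to 26.4, all above control; leaving each library out in turn kept its call (adjusted p 0.0013 to 0.00726).

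The knockdown effect differed between days in 6 tests of a change from day 0, with 4 members tested on each of days 3, 7 and 11. Of all genes, 6.57%, 29.9% and 23.2% passed such tests on these days. Ppargc1b gained 0.78 log2 units on day 3 (a call lost with voom, adjusted p = 0.127), 1.52 on day 7 and 1.53 on day 11, Cox7a1 gained 0.67 on day 7 and 0.67 on day 11, and Ucp2 gained 1.11 on day 7. Cox7a1 had 3 reads at most in each day 0 library and was tested only through the later libraries, where it was high; rebuilt reads fitted by voom gave larger values without a call (log2 1.42 and 1.12, adjusted p = 0.258 and 0.391).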

How the results depend on the processing

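Over 80 single-member comparisons, 746 of 778 alternative fits kept the direction and the side of the threshold, 19 lost a call, 13 gained one and 0 reversed. Of counts of members called, 12 of 195 moved beyond a set tolerance, and smaller shifts are not among the 12. With the replicate block Ucp2 on day 3 (limma adjusted p = 0.0831) and Ppargc1a on day 7 (0.107) lost their calls. Ppargc1a lost its calls on days 3 and 7 in 1 fit of all 32 libraries (0.203 and 0.114). Ucp2 on day 11 gained a call with equal totals (0.0496) and without shRNA #2 replicate 1 (0.0464). For knockdown against control on day 0 (1 called), the count was 0 with the replicate block and 0 to 1 with each library left out. On day 11, 2 of 4 tested were called (33.0% of all genes). The count was 4 of 9 tested with no filter (20.1% of all genes) and 4 of 4 with separate shRNAs (46.1%). It was 4 of 4 in 1 fit of all 32 libraries (39.6%) and 1 of 3 with a filter of 50 (36.5%). For the change in knockdown effect, the day 3 count went from 1 to 0 with voom (4 tested). The day 11 count went from 2 to 1 with a filter of 50 (3 tested) and with log2 of rebuilt reads plus 1 or 0.5 (4 tested). The Zbtb9 difference on day 0 had an adjusted p of 0.271 with limma (log2 difference -0.21). Counts of rare members separated by the exact test ranged, with each library left out, from 0 to 1 on day 3, from 0 to 2 on day 7 and from 0 to 2 on day 11 (7 libraries in place of 8; leaving out libraries here and for the ratio was chosen after seeing the data). The Ppargc1a to Ppargc1b ratio on day 0 ranged from -0.41 to 0.08 (log2, knockdown minus control) with each library left out.

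Deviations of libraries with the same replicate number correlated at -0.01 to 0.21 within days (3 of 24 over 0.1). In a group of 2 libraries the deviations mirror each other, so these correlations are not independent and cannot exclude pairing. With the replicate block, all genes called went from 430 to 0 on day 0, 3506 to 845 on day 3, 6328 to 4112 on day 7 and 4382 to 1652 on day 11; Ucp2 on day 3 (adjusted p = 0.0831) and Ppargc1a on day 7 (0.107) were not called. With separate shRNAs 3340 genes were called on day 0 and 5311 on day 3; without trend and robust fitting together 261 were called on day 0, and 111 to 250 without each control library or shRNA #1 replicate 2. Scaling to equal totals shifted the all-gene median by -0.13 log2 on day 3 against day 0 in control, and the share called higher there from 50.1% to 38.6%; for knockdown on day 0 that share went from 25.1% to 43.3%, and for the change in knockdown effect from 56.2% to 42.4%, 56% to 40.7% and 53.6% to 40.1% on days 3, 7 and 11. Leaving out shRNA #2 replicate 1 or 2 made the Ppargc1a change in knockdown effect on day 11 a call (adjusted p = 0.016 and 0.0326; 0.12 with all libraries), and leaving out shRNA #1 replicate 2 did so for Ucp2 (0.0414; 0.252 with all). Depth limits the members at the floor, where a few reads separate the arms.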
